A study of Mus musculus with 3 samples.

Results

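Loss of Nanos2 in the fetal testis was described by setting a column of array values from Nanos2-/- Stra8+/- gonads against a column from Nanos2+/- Stra8+/- gonads, which served as the control. The members were chosen by genotype alone and make up 2 of the 3 columns of the series. Both came from male mouse embryos at stage E14.5. In both, 1 copy of Stra8 was lost as well, so the comparison shows Nanos2 loss in animals that are heterozygous for Stra8. The remaining column carries the label Nanos2-/- Stra8-/- and is quoted only beside values of these 2 columns. Whole gonads gave the RNA, which therefore mixes germ and somatic cells, and fewer cells of a type cannot be told apart from less RNA per cell. How the null alleles were built and how many animals entered a column are not given in the sources used here.

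NANOS2 binds RNA and is found in the germ cells of the fetal testis. It brings the CCR4-NOT deadenylase to target mRNAs in P-bodies, which shortens their poly(A) tails. In the fetal testis it holds back meiosis and the pluripotency programme, while the germ cells stop dividing and build the DNA methylation and piRNA machinery that silences transposons. STRA8 is the factor induced by retinoic acid that starts meiosis, as a rule in female germ cells at this stage.

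Each genotype had 1 column, so no difference has a replicate check and no p-value is given. Titles name replicates 1 and 2 for each column, with no word on how these were combined. The values are the deposited ratios. Most probes lie near 1 in every column, as after division by a value for each probe, so values of different probes are not comparable, while the difference between columns of a single probe is unaffected. All differences below are on the log2 scale, Nanos2-/- Stra8+/- minus control, and a gene is given by the median over its probes. A difference of 1 is 2-fold. The table held 41174 array probes, of which 32664 named 19532 genes, and 8511 genes had 2 or more probes. The median difference over all genes was 0.04, and 95% of genes lay between -1.14 and 0.98. A class of 7552 probes lay below 0.7 in all 3 columns, as did the negative control probe, which read 0.352 in the control and 0.354 without Nanos2. Whether a low value of another probe lay at background is not known, so differences whose lower side is small may be bounds rather than sizes.

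The targeted gene was examined first. Nanos2, with a single probe, had a value of 87.2 in the control, 0.364 without Nanos2 and 0.397 in the data labelled Nanos2-/- Stra8-/-. This was the lowest difference of all named genes, and its direction is the one the label calls for. Of 18 Sertoli cell markers all were measured and none had every probe in the low class. On the Y chromosome Eif2s3y differed by 0.14, Kdm5d by 0.17 and Uty by 0.24. In the same list Xist, the X-inactivation RNA, was past 2-fold at 1.06, but its 4 probes differed by 0.20, 0.35, 1.77 and 1.96, and the probe with the highest mean gave 0.35.

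**Figure D1:**
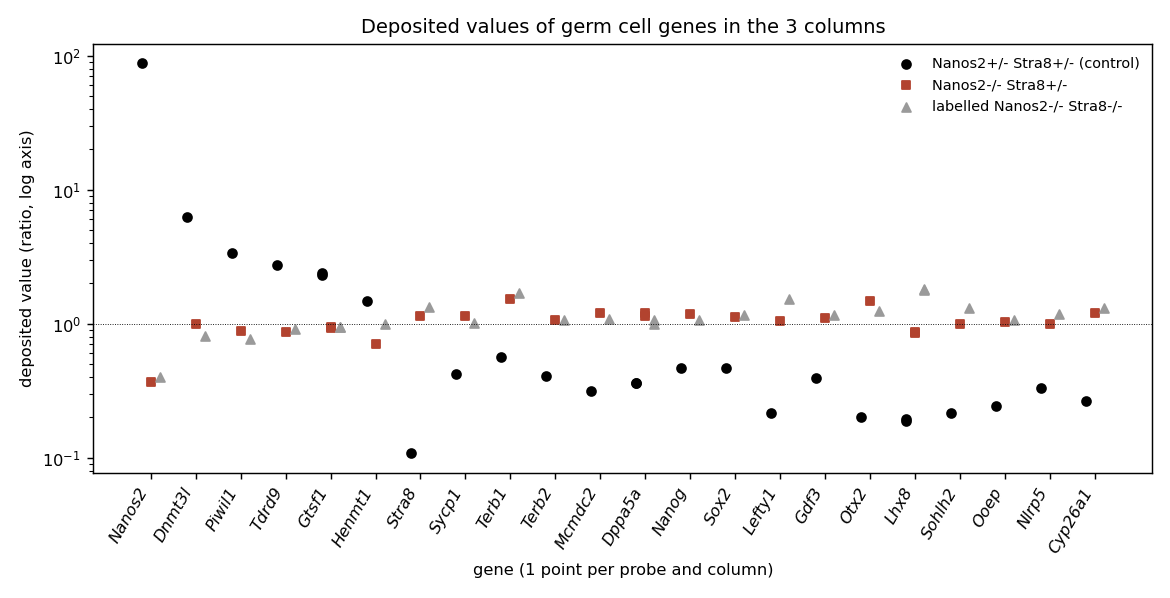
Deposited values (ratios, log axis) of germ cell genes named in the text, with 1 point per probe and column: circles for the control, squares for Nanos2-/- Stra8+/- and triangles for the data labelled Nanos2-/- Stra8-/-. Genes from Nanos2 to Henmt1 have their highest value in the control and genes from Stra8 to Cyp26a1 their lowest, with a control value of 0.108 for Stra8. The genes drawn are a choice, so this split does not describe their lists. The 5 oocyte genes past 2-fold downward, Tex12 and Dppa4, which were lower without Nanos2, are not drawn.

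Several genes that act in male germline transposon silencing were lower without Nanos2. Dnmt3l, the cofactor of de novo DNA methylation in germ cells, had a value of 6.24 in the control and 1.0 without Nanos2. Gtsf1, a zinc-finger partner of PIWI proteins, differed by -1.30 and -1.36 on its 2 probes. Its values were 2.34 in the control and 0.931 without Nanos2, as medians over the probes, and the data labelled Nanos2-/- Stra8-/- lay at 0.947. Of 21 measured genes of the piRNA and Tudor list, 4 were at least 2-fold lower and 0 were 2-fold higher, where 3.16% of all genes were 2-fold lower and 2.35% 2-fold higher. The list had a median of -0.37 against 0.04 for all genes, with 17 members below 0.

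The members of this list did not move alike. Piwil1, a PIWI protein best known from later spermatogenesis, had a value of 3.38 in the control and 0.876 without Nanos2. Tdrd9, a helicase with a Tudor domain that works with PIWIL4, went from 2.72 to 0.869. Henmt1, the methyltransferase that caps piRNA 3′ ends, went from 1.48 to 0.704, but its value in the data labelled Nanos2-/- Stra8-/- was 0.999. The 2 probes of Tdrd1, a Tudor scaffold of the piRNA granules, differed by -0.69 and -0.82. Of the fetal PIWI genes, Piwil2 had 2 probes that disagreed, at -0.52 and 0.02, and the only probe of Piwil4 was in the low class, so it gives no difference to read. The Tudor proteins Tdrd12, at 0.65, Tdrd6, at 0.53, and Tdrkh, at 0.52, were on the other side of 0.

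DNA methylation enzymes other than Dnmt3l showed smaller differences. Dnmt3b, a de novo methyltransferase, went from 0.579 to 1.03, a difference of 0.83, and the 5-methylcytosine oxidase Tet1 differed by 0.56. Dnmt3a, the other de novo enzyme, had 3 probes that disagreed, at -0.68, -0.55 and 0.11. The maintenance enzyme Dnmt1 differed by -0.06 and its partner Uhrf1 by 0.03. Of the 10 genes of DNA methylation and demethylation, Dnmt3l was the only gene past 2-fold.

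Some meiotic genes were higher without Nanos2, while most of the machinery lay near the control. Stra8 had a value of 0.108 in the control, 1.13 without Nanos2 and 1.34 in the data labelled Nanos2-/- Stra8-/-. Its log2 difference was 3.39, and 1.18 with values under 0.5 raised to 0.5, so its size rests on the low control value. The floor of 0.5 is a chosen setting and not a measured background. With a value near 1 without Nanos2, it sets the difference near 1 in advance. The position of the single Stra8 probe against the deleted stretch is not known, so the probe does not check the Stra8 label. The meiotic axis and synapsis list, to which Stra8 belongs, had 20 measured genes and a median of 0.17. Of these, 4 were at least 2-fold higher and 1 was at least 2-fold lower, where 2.35% of all genes were higher and 3.16% lower. Besides Stra8 the higher genes were Terb1 at 1.46 and Terb2 at 1.37, which tie telomeres to the nuclear envelope, and Sycp1, which spans the synaptonemal complex, at 1.44. The values of Terb2 were 0.409 in the control, 1.06 without Nanos2 and 1.06 in the data labelled Nanos2-/- Stra8-/-. Hormad2, a chromosome axis protein, lay just under 2-fold at 0.99. Tex12, of the central element, was at -1.02 and -1.03 by 2 of its probes, and its remaining probe, at 0.18, belonged to the low class.

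Recombination genes gave a single large difference. Mcmdc2, a MCM-like protein needed for meiotic recombination, went from 0.315 to 1.20, a difference of 1.93. It was the only one of 20 measured recombination genes past 2-fold, where 5.51% of all genes were. With low values raised to 0.5 it differed by 1.26. The enzyme that makes meiotic breaks, Spo11, differed by 0.06 and the recombinase Dmc1 by 0.01. The only probe of the break site factor Prdm9 was in the low class. The chromosome axis and cohesin genes Sycp3, at 0.26, Rec8, at 0.41, Smc1b, at -0.14, and Stag3, at -0.55, did not reach 2-fold.

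Some genes of the retinoic acid list were higher without Nanos2, while 16 of 19 lay within 0.5 of 0. Cyp26a1, an enzyme that breaks down retinoic acid and is itself induced by it, went from 0.263 to 1.20, and Hoxb1, a Hox gene with retinoic acid response elements, from 0.452 to 1.20. Of 19 measured genes of retinoic acid metabolism and response, 3 were 2-fold higher, counting Stra8, and 0 were 2-fold lower, with a median of 0.15, where 2.35% of all genes were higher and 3.16% lower. With low values raised to 0.5, Cyp26a1 differed by 1.26 in place of 2.19. The other members, among them enzymes and receptors that set and read retinoic acid, differed less. Dhrs3, Stra6 and Crabp2 differed by 0.15, 0.21 and 0.01, and Crabp1 by -0.35. Cyp26b1, the enzyme that clears retinoic acid from the fetal testis, differed by 0.11, the synthesis enzyme Aldh1a2 by 0.18, Rdh10, which makes retinal, by 0.50, and the receptors Rara, Rarb and Rarg by 0.41, 0.34 and 0.47.

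The promoters of Stra8 and Cyp26a1 are shown because these targets of a single signal were both higher, and those of Taf7l, Sycp1 and Tdrd9 because they hold the same E-box although the first of them were higher and Tdrd9 was lower. Each is the 250 bases before the gene's start in RefSeq's annotation of GRCm38.p6. In the first 2, capitals mark AGGTCA and AGTTCA, letters bound by retinoic acid receptors, on either strand. In the other 3, capitals mark CACGTG, the E-box bound by MAX and its partners, which reads alike on both strands.
Stra8 (chr6:34920698-34920947, plus strand): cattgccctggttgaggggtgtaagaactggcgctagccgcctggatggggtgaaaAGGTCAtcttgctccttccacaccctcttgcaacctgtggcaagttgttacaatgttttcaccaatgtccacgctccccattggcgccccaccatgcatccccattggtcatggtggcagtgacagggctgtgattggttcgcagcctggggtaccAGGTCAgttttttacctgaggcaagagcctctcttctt
Cyp26a1 (chr19:37697558-37697807, plus strand): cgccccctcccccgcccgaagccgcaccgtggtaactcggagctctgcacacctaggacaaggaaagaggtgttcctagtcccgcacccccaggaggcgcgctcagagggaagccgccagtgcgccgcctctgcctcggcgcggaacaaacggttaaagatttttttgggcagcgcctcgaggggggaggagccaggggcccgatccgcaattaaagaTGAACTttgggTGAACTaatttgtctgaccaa
Taf7l (chrX:134476491-134476740, minus strand): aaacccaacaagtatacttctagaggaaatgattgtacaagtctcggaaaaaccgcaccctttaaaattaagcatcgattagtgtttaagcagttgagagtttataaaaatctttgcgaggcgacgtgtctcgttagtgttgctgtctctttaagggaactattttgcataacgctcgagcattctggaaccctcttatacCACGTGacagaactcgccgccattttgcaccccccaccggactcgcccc
Sycp1 (chr3:102936101-102936350, minus strand): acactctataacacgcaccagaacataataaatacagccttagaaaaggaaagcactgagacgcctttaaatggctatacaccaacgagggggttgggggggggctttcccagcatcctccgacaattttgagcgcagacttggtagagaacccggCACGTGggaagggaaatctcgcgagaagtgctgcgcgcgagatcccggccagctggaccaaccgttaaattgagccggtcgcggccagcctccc
Tdrd9 (chr12:111971309-111971558, plus strand): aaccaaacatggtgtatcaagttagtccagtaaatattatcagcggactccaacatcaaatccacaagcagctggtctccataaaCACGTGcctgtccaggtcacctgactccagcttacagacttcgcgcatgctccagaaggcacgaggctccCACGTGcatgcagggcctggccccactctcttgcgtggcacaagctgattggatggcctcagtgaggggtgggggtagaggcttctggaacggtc

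The Stra8 promoter held AGGTCA at 194 and at 38 bases before the start. AGGTCA was found in 13.8% of 27025 promoters of this length and AGTTCA in 11.9%. In the retinoic acid list each was found in 2 of 16 genes with a promoter (12.5%), near these shares. Of genes higher by every probe each was found in 3 of 21 (14.3%), and of lower genes in 8.82% and 11.8%. Among the lists searched, AGGTCA was most frequent in the pluripotency list, in 4 of 12 genes (33.3%). The Cyp26a1 promoter held AGTTCA, read on the other strand as TGAACT, at 32 and at 21 bases before the start, with 5 bases between them. Such a pair, AGTTCA repeated on the same strand after 5 bases of any kind, was found in 6 of the 27025 promoters, or 0.0222%. The E-box CACGTG was found in 6.05% of all promoters. It was found in 6 of the 16 piRNA and Tudor genes with a promoter in the table, which were Piwil1, Mael, Mov10l1, Tdrd1, Tdrd9 and Stk31. It was found in 5 of 17 genes of the meiotic axis and synapsis list, which were Sycp1, Sycp3, Tex12, Hormad1 and Stag3. Among these E-box genes Sycp1 was 2-fold higher, while Piwil1, Tdrd9 and Tex12 were 2-fold lower by the median of their probes. Of the genes past 2-fold by every probe, the E-box was found in 1 of 21 higher genes with a promoter (4.76%) and in 2 of 34 lower genes (5.88%), near the share of all promoters. A match shows only that the letters are present, and the motifs were chosen with these results known.

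Some pluripotency factors were higher. Dppa5a, an RNA-binding protein of pluripotent cells, differed by 1.67 and 1.74 on its 2 probes, with median values of 0.360 in the control, 1.17 without Nanos2 and 1.03 in the data labelled Nanos2-/- Stra8-/-. Nanog went from 0.462 to 1.18 and Sox2 from 0.462 to 1.12. Of 17 measured pluripotency genes, 3 were 2-fold higher, 0 were 2-fold lower and 12 lay above 0, with a median of 0.32, where 2.35% of all genes were 2-fold higher, 3.16% lower and 59.3% above 0. Esrrb, an orphan receptor of the same network, differed by 0.63, Tfap2c, which is needed to specify germ cells, by 0.61, and Pou5f1, which encodes OCT4, by 0.37. Dppa4 went the other way, from 1.49 to 0.808.

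Some Nodal signalling genes were higher. Lefty1, a secreted inhibitor of Nodal that Nodal itself induces, went from 0.215 to 1.04. Otx2, a homeobox factor of the epiblast and head, went from 0.200 to 1.48, and Gdf3, a ligand of the same receptor pathway, from 0.389 to 1.10. These were the 3 genes past 2-fold among 18 measured Nodal and Activin genes, with 0 past 2-fold downward and a median of 0.23, beside 2.35% of all genes higher. All 3 had a single probe, and 3.47% of single-probe genes were 2-fold higher. With values under 0.5 raised to 0.5, Lefty1 differed by 1.06 in place of 2.27 and Otx2 by 1.57 in place of 2.89. Acvr2b, an Activin receptor, differed by 0.53, Nodal itself by 0.48, its co-receptors Tdgf1 and Cfc1 by 0.28 and 0.37, and Lefty2, a near copy of Lefty1, by 0.25. The Activin subunits Inhba and Inhbb differed by 0.01 and -0.14, and the effectors Smad2, Smad3 and Smad4 by 0.26, 0.21 and -0.02.

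Germ cell RNA-binding proteins differed in both directions. Nanos3, the family member of early germ cells, went from 0.670 to 1.19, and Nanos1, the member best known from the nervous system, differed by 0.78 and 1.13 on its 2 probes. Elavl2 differed by 0.72 on both of its probes and Dazl, which supports translation in germ cells, by 0.49 and 0.75. Dnd1, which works with NANOS2 on its targets, went from 1.53 to 0.821. Apart from Nanos2, 0 of the 15 measured genes of this list were past 2-fold by the median of their probes. The deadenylase that NANOS2 recruits lay near the control: of 24 CCR4-NOT and P-body genes 0 were past 2-fold and 23 lay within 0.5 of 0, with Cnot1, the scaffold, at 0.13 and Ddx6, the P-body helicase, at -0.05. Of 19 primordial germ cell genes only Taf7l, a germ cell subunit of the general transcription factor TFIID, was past 2-fold, at 1.37 and 1.48 on its 2 probes.

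Oocyte genes split by direction. The transcription factor Lhx8, needed for early follicles, differed by 2.16 and 2.19 on its 2 probes. Its median value was 0.190 in the control, 0.855 without Nanos2 and 1.78 in the data labelled Nanos2-/- Stra8-/-. The transcription factor Sohlh2 went from 0.215 to 0.998. Maternal-effect genes went both ways. Ooep went from 0.243 to 1.03 and Nlrp5 from 0.332 to 0.985, while the egg arginine deiminase gene Padi6 went from 3.80 to 0.808. Nlrp4f went from 4.49 to 0.613, Nlrp14 from 1.14 to 0.254 and Oas1d, an egg form of the oligoadenylate synthetases, from 21.9 to 0.983. Oog1 was also past 2-fold downward, at -1.45. Of 24 measured members 4 were 2-fold higher and 5 were 2-fold lower, and the median was -0.05, where 2.35% of all genes were higher and 3.16% lower. With values under 0.5 raised to 0.5, Lhx8 differed by 0.77, Nlrp5 by 0.98, Ooep by 1.04 and Nlrp14 by -1.19. Lhx8, Sohlh2 and Nlrp5 then no longer reached 2-fold, as values under 1 without Nanos2 cannot over a floor of 0.5. The data labelled Nanos2-/- Stra8-/- had Nlrp14 at 1.04 and Oog1 at 1.08, close to their control values of 1.14 and 1.39.

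**Figure D2:**
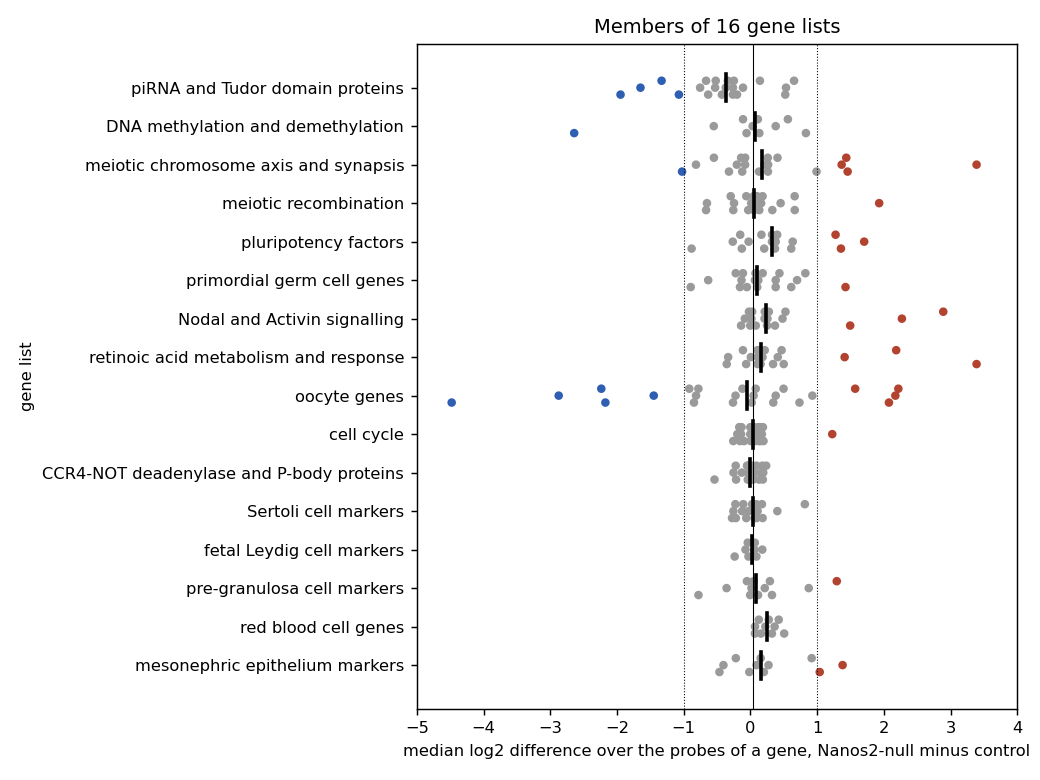
Median log2 difference over the probes of each gene (horizontal axis), Nanos2-/- Stra8+/- minus control, with 1 point per measured member of a list and a black bar at the list's median. The dotted lines mark 2-fold, the thin line the median of all genes (0.04). The piRNA list has its median at -0.37, the pluripotency list at 0.32, and oocyte genes reach past 2-fold on both sides.

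Genes for spermatogonial stem cells and for GDNF signalling, which maintains these cells after birth, showed few large differences. Ret, the GDNF receptor, went from 0.369 to 1.53, and Lhx1, a homeobox factor that GDNF induces in spermatogonia, differed by 1.29 and 1.47 on its 2 probes. Besides Nanos2 these were the only genes past 2-fold among 21 measured genes of the spermatogonial list, whose median was 0.12. The co-receptor Gfra1 differed by 0.04, its ligand Gdnf by -0.07 and Etv5, another GDNF target, by 0.03. Of the 9 GDNF family ligands and receptors Ret was the only gene past 2-fold, and the list's median was 0.16. Ret and Lhx1 are also genes of the mesonephros, the duct tissue next to the gonad. Of 11 mesonephric epithelium markers, a list that holds Lhx1 but not Ret, 2 were 2-fold higher and 0 lower. Of all genes 2.35% were 2-fold higher and 3.16% lower. The list had a median of 0.15 and members between -0.46 and 1.38. Its higher genes were Lhx1 and Cdh16, an epithelial cadherin with a single probe, which went from 1.0 to 2.05. In the data labelled Nanos2-/- Stra8-/- Cdh16 had a value of 0.822, below the control. Cdh1, the general epithelial cadherin, lay at 0.92. Pax2 was at 0.09 and Wfdc2 at -0.02, and of the 2 probes of Pax8 one was at -0.74 and the other, at -0.19, belonged to the low class. Their part in the values of Ret and Lhx1 was not tested.

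Among developmental signalling genes, Wnt ligands went both ways. Wnt3 differed by 1.27 and 1.34 on its 2 probes, with median values of 0.518 in the control, 1.28 without Nanos2 and 1.25 in the data labelled Nanos2-/- Stra8-/-. Wnt8a went from 0.121 to 0.966, with a difference of 0.95 once values under 0.5 were raised to 0.5, and the secreted WNT inhibitor Sfrp2 from 0.388 to 1.02, while Wnt3a went from 2.34 to 0.720. These 3 higher and 1 lower were the genes past 2-fold among 26, where 2.35% of all genes were higher and 3.16% lower. The WNT target Axin2 differed by 0.23. Of 26 BMP and TGF-beta genes Msx1, a target of BMP signals, was the only gene past 2-fold, at 1.06, and its 2 probes disagreed, at 0.36 and 1.76, so that the probe with the highest mean gave 0.36. Of 19 FGF pathway genes 0 were past 2-fold. Fgf9, a Sertoli cell ligand that keeps germ cells from meiosis, differed by -0.26.

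Cell cycle genes lay close to the control, with 25 of 26 within 0.5 of 0. The exception was Cdk6, a G1 kinase, whose 3 probes differed by 0.87, 1.23 and 1.40. The proliferation marker Mki67 differed by 0.07, Ccna2 by 0.15 and Pcna by 0.02. The CDK inhibitors Cdkn1b, which encodes p27, and Cdkn2b, which encodes p15, differed by 0.10 and -0.28, and Rb1, the retinoblastoma gene that helps male germ cells leave the cycle, by 0.61 and 0.77 on its 2 probes. Of 16 p53 family, Bcl2 family and caspase genes only Casp9, which starts mitochondrial apoptosis, was past 2-fold, from 1.03 to 0.511. Its value in the data labelled Nanos2-/- Stra8-/- was 1.14. None of the 10 CDK inhibitors and retinoblastoma genes was past 2-fold, with a median of 0.07. The mediator of apoptosis Pmaip1 differed by 0.81.

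Chromatin and imprinted genes had no member past 2-fold. Of 18 Polycomb and PRC1.6 genes 17 lay within 0.5 of 0, with a median of 0.17, and Ring1 was highest at 0.55. Max and Mga, which bind the E-box within PRC1.6, both differed by 0.24. Of 24 imprinted genes 22 lay within 0.5 of 0, with a median of 0.09. The 2 others were Peg10, at -0.74, and Snrpn, whose 2 probes differed by 0.74 and 0.85.

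Most somatic cell markers lay near the control. Of 18 Sertoli cell markers 17 lay within 0.5 of 0, with Sox9 at 0.09 and Amh at -0.13. The other was Dmrt1, which both Sertoli and germ cells express, at 0.82. All 8 measured fetal Leydig cell markers lay between -0.24 and 0.18, and 9 of 10 endothelial markers within 0.5, with Pecam1 at 0.54. Of 12 pre-granulosa markers 9 lay within 0.5 of 0. Gng13 was past 2-fold at 1.29, Rspo1 was at 0.87 and Irx3 at -0.78, but Foxl2, the defining factor of the lineage, was at 0.02 and Wnt4 at -0.05. All 10 red blood cell genes lay above 0, from 0.07 to 0.51, where 59.3% of all genes did. Of 8 macrophage markers 7 lay above 0, up to 0.34, and Cd163 was at -0.74. Of 14 immediate early and heat shock genes 0 were past 2-fold. Whether blood content bears on differences elsewhere was not tested.

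Agreement between probes of a gene was the only internal check on size. Of the 8511 genes with 2 or more probes, 25 (0.294%) were at least 2-fold higher by every probe and 48 (0.564%) at least 2-fold lower. By any single probe 334 (3.92%) were higher and 404 (4.75%) lower, so most probes past 2-fold were not matched by the other probes of their gene. In 15 genes probes were past 2-fold in opposite directions. Between the probes of a gene the median SD was 0.12 and the 95th percentile 0.77. The probes of a gene were hybridised with a single sample, so their agreement checks the measurement of that sample and not the genotype. Over all 19532 genes, by the median of their probes, 459 (2.35%) were 2-fold higher and 618 (3.16%) lower, and 1077 in all (5.51%). Genes with a single probe passed more often, 3.47% upward and 4.47% downward of 11021. Many germ cell genes past 2-fold above had a single probe and so lack this check. Among them were Dnmt3l, Piwil1, Tdrd9, Henmt1, Sycp1, Terb1, Terb2, Mcmdc2, Cyp26a1, Hoxb1, Nanog, Sox2, Lefty1, Otx2 and Gdf3.

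**Figure D3:**
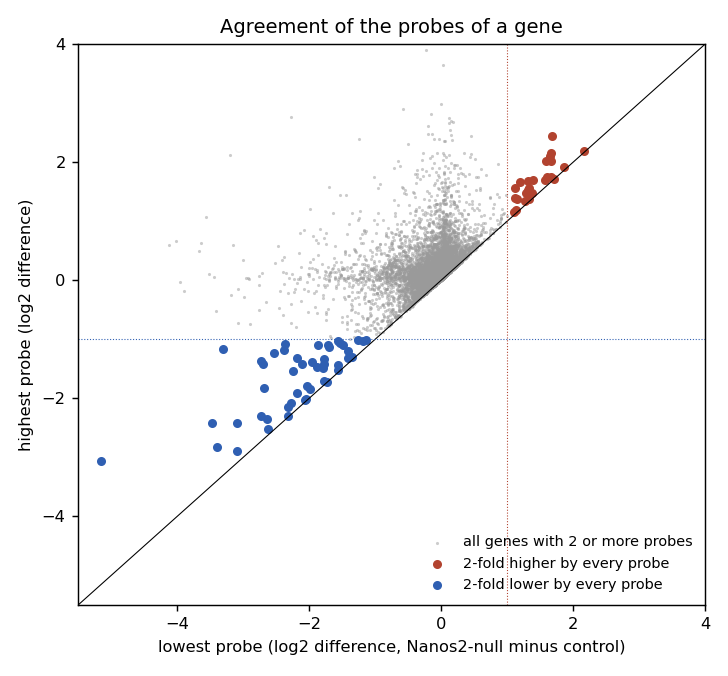
Lowest (horizontal axis) and highest (vertical axis) log2 difference among the probes of each gene with 2 or more probes, Nanos2-/- Stra8+/- minus control. Genes on the diagonal have probes that agree. The 25 genes past 2-fold upward by every probe lie right of the dotted vertical line and the 48 downward lie under the dotted horizontal line.

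The 25 genes higher by every probe were led, by the smallest probe difference, by Lhx8 and held Dppa5a, Taf7l, Wnt3 and Lhx1. Their control medians lay between 0.190 and 0.624 and their values without Nanos2 between 0.846 and 1.54. Galnt6, an enzyme of O-glycosylation, went from 0.402 to 1.49 and Spic, an ETS factor, from 0.310 to 1.02. St8sia3, a sialyltransferase, differed by at least 1.68 on each of 3 probes. Prss50, a testis serine protease, went from 0.316 to 1.01, and Tgtp1, an interferon-inducible GTPase, from 0.295 to 1.04. With values under 0.5 raised to 0.5, 14 of the 25 stayed past 2-fold by every probe. The medians over the probes were then 1.03 for Spic, 1.02 for St8sia3, 1.01 for Prss50, 1.06 for Tgtp1 and 0.99 for Kcng3. A median past 2-fold there does not mean that every probe was. Transport proteins among them were Slc14a1, a urea transporter, at 1.66 and 2.15, Slco4c1, an organic anion transporter, at 1.65 and 2.11, Kcng3, a potassium channel subunit, at 1.59 and 2.01, and Atp6v0a4, a proton pump subunit, at 1.40 and 1.69. The others named were Ap3b2, a vesicle adaptor subunit, from 1.58 upward, and the receptors Gpr83, from 1.33, and Htr2b, the serotonin receptor 2B, from 1.32. In the data labelled Nanos2-/- Stra8-/- the probes of Ap3b2 disagreed, at 0.420 and 1.27, as did those of Slco4c1, at 0.414 and 1.05. The lower value of each lay near that probe's control value, 0.318 for Ap3b2 and 0.312 for Slco4c1.

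The 48 genes lower by every probe had control medians between 0.912 and 7.49 and lay between 0.264 and 0.998 without Nanos2. Zic1, a zinc-finger factor of neural development, went from 4.55 to 0.570, with its probes at -2.89 and -3.10. Daw1, which helps build ciliary dynein arms, went from 2.44 to 0.274 and Cfap206, an axoneme protein, from 1.84 to 0.311. Other genes of cilia and flagella in the set, chosen after their values were seen, were Dynlrb2, Tekt1, Mak and Cfap70, with smallest probe differences of 1.53, 1.30, 1.33 and 1.10 in size. Rph3a, a synaptic vesicle protein, went from 7.49 to 0.932, Bfsp2, a lens filament protein, from 5.18 to 0.873, and Gulo, the last enzyme of vitamin C synthesis, from 4.92 to 0.863. Slc44a4, a choline transporter-like protein, went from 4.51 to 0.683 and St18, a zinc-finger factor, from 3.33 to 0.675. The interferon-inducible genes Oas3 and Ifi27l2a went from 2.03 to 0.492 and from 2.59 to 0.635. Plg, which encodes plasminogen, Myo1a, a brush border myosin, Svop, a vesicle transporter, Il1r2, a decoy receptor for interleukin 1, and Marveld3, a tight junction protein, had smallest probe differences of 2.14, 2.08, 1.91, 1.84 and 1.83 in size.

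**Figure D4:**
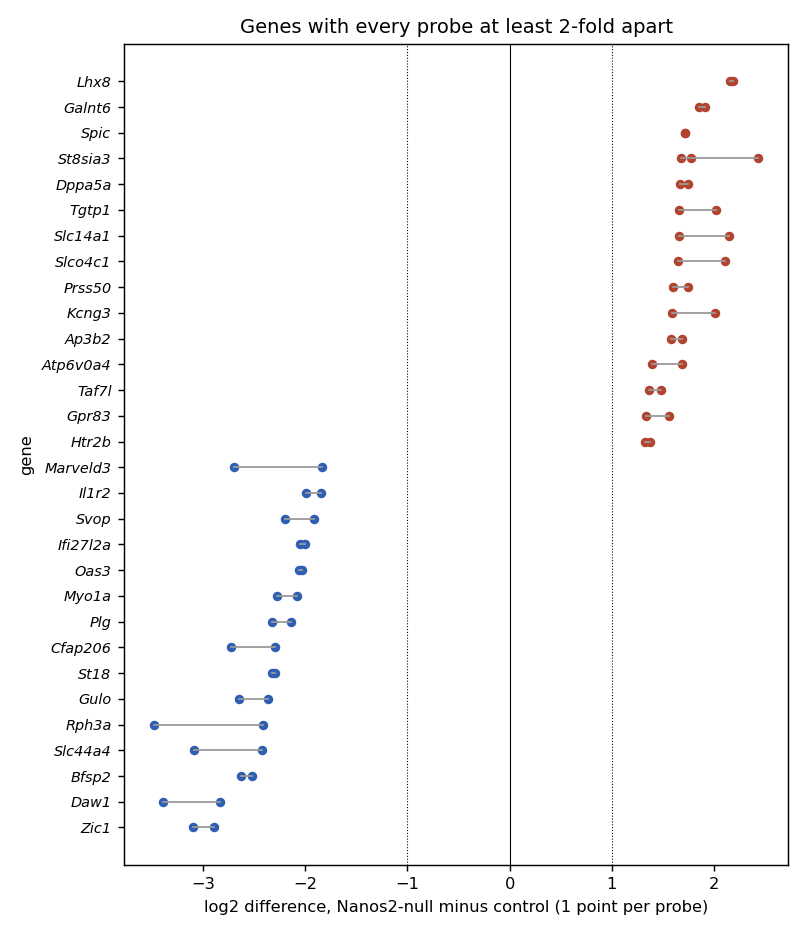
Log2 difference of every probe (1 point each, horizontal axis), Nanos2-/- Stra8+/- minus control, for the 15 genes in each direction with the largest smallest-probe difference, predicted genes and clones left out. All points lie outside the dotted 2-fold lines, from Lhx8 at 2.16 and 2.19 to Zic1 at -2.89 and -3.10.

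Genes with a single probe gave the widest differences and have no such check. Upward, after Stra8, these were Apobec4, Ptf1a, Fsd2, Wnt8a, Foxd4, Ifi27l2b and Spint4, from 3.26 for Apobec4, a cytidine deaminase family member, to 2.92 for Spint4, a Kunitz domain protein. With values under 0.5 raised to 0.5, Apobec4 differed by 2.16, Foxd4 by 1.11, Spint4 by 1.13 and Ptf1a by 0.90. They fall apart by the data labelled Nanos2-/- Stra8-/-. Ptf1a, a pancreatic and neural factor, had values of 0.0989, 0.935 and 1.48 in the order control, Nanos2-/- Stra8+/- and that column, and Foxd4, a forkhead factor, 0.135, 1.08 and 1.23. Apobec4 had 0.233, 2.24 and 0.313, Fsd2, a muscle protein, 0.384, 3.24 and 0.637, and Ifi27l2b 0.425, 3.27 and 0.687, so in these 3 genes the Nanos2-/- Stra8+/- column stood apart from both others. Of the control spots described below, AT_nX_3, with 0.308, 1.28 and 0.383, and the dark corner, with 0.331, 0.864 and 0.450, had the same pattern. The AT_nB_5 spot did not, with 0.317, 0.822 and 0.637. Whether these gene values share a cause with the spots was not tested. Downward, after Nanos2, Apoc2, Clca1, Trim61, Vmn1r172, Oas1d, Myl10 and Snorc differed by -6.12 to -4.30. Apoc2, the activator of lipoprotein lipase, had values of 56.9, 0.820 and 0.989. Clca1, a secreted regulator of chloride channels, had 27.6, 0.905 and 0.564, and Snorc, a cartilage proteoglycan, 18.1, 0.921 and 0.888. Of 15 apolipoprotein and lipase genes Apoc2 was the only gene past 2-fold, and its neighbours in the cluster, Apoe, Apoc1 and Apoc4, differed by -0.07, -0.07 and 0.21. Of 24 striated muscle genes 4 were 2-fold lower and 0 higher, where 3.16% of all genes and 4.47% of single-probe genes were lower. These were Myl10, Tnnc2 at -2.05, Myl2 at -1.39 and Myh7, whose 2 probes differed by -1.32 and -1.41, while Des was at 0.03 and Actc1 at 0.07.

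Apoc2 lies near Nanos2 on chromosome 7, as the measured gene 37 places along in the order of genes in GRCm38.p6. For that reason, chosen after the value was seen, the measured neighbours were listed. Of 20 genes within 10 places of Nanos2, 1 was 2-fold higher and 2 were 2-fold lower, or 15%, and of 100 within 50 places 2 were higher and 6 lower, or 8%, where 5.51% of all genes were past 2-fold. Those past 2-fold within 10 places all had a single probe, and of single-probe genes 3.47% were 2-fold higher and 4.47% lower. Pglyrp1, a peptidoglycan recognition protein 2 places before, went from 1.85 to 0.668, and Foxa3, a forkhead factor 3 places after, from 1.84 to 0.890. The Sycp1 pseudogene Sycp1-ps1, 6 places before, went from 0.439 to 1.08, a difference of 1.30 beside 1.44 for Sycp1. Whether lying near Nanos2 bears on the values of Apoc2, Pglyrp1 and Foxa3 was not tested, and whether the probes of Sycp1 and its pseudogene read a shared transcript is not known. The genes directly beside Nanos2 were Ccdc61, at -0.34, and Mypop, at 0.08. Around Stra8 on chromosome 6, of which both groups carry the same genotype, 5 of 100 were 2-fold higher and 1 lower, or 6%. Over the autosomes and the X chromosome the share of genes 2-fold higher ran from 1.26% on chromosome 8 to 3.68% on the X chromosome, and the share 2-fold lower from 1.70% on chromosome 18 to 4.23% on chromosome 7.

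**Figure D5:**
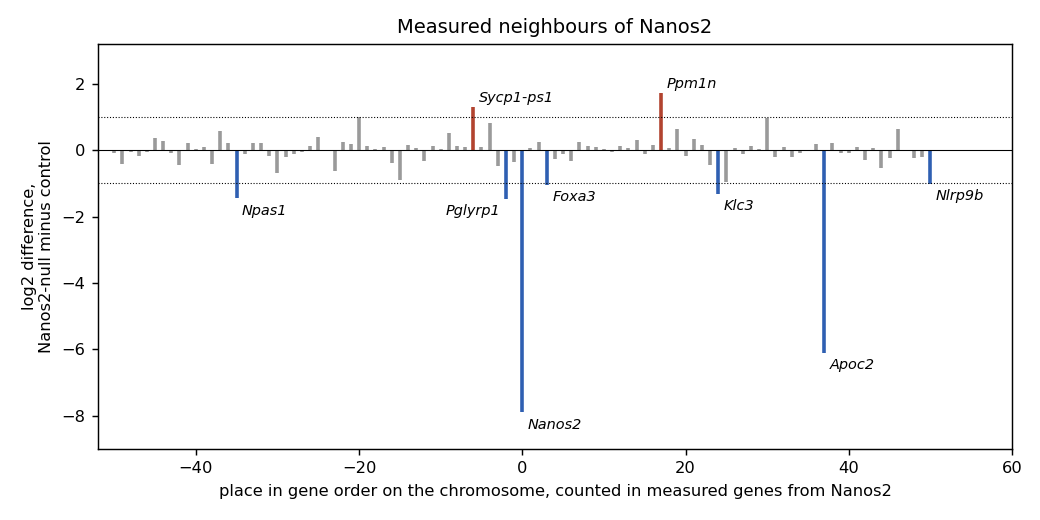
Median log2 difference (vertical axis), Nanos2-/- Stra8+/- minus control, of the measured genes within 50 places of Nanos2 in gene order (horizontal axis, counted in measured genes). Coloured bars are past 2-fold, and Nanos2 at -7.90 and Apoc2 at -6.12 stand far below the others, which lie between -1.47 and 1.72.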

How the data were processed

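Gonads of male mouse embryos were measured on single-colour Agilent arrays with Cy3-labelled cRNA, per the labels' protocols, and the submitters' processing notes name Agilent Feature Extraction 9.5. The authors deposited linear ratios. The divisor of each probe, the scaling between arrays and the way replicates 1 and 2 of a title were combined are not given in the sources used here. Of 41267 entries 93 control spots were left out. The platform annotation gave 1 gene symbol for 32664 probes, several for 45 and none for 8465. For 32524 the gene was found in a RefSeq table of GRCm38.p6, which changed 0 symbols.

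From the deposited ratios, log2 differences were taken per probe and summarised per gene by their median, without a filter, in Python 3.11.15 with pandas 2.3.3. Earlier work on these values took the probe with the highest mean, which favours a probe that is high in 1 column, so it is an alternative here. Genes were counted from 2-fold. The 4 counts were made over all genes, and no test was possible with 1 column per genotype. The number of arrays limits the precision. The members, the 32 gene lists and the rules were chosen with earlier results of these data known. Named genes were Nanos2 and Stra8, 15 genes per direction past 2-fold by every probe, 8 single-probe genes per direction, and from each list all members past 2-fold or else the 4 widest, with others as examples of small differences. Clone and predicted-gene symbols were counted and not named. The counting code was run on simulated data in which every probe of the changed genes was shifted well past 2-fold. That checks the code and not how reliable the counts are. Alternatives were the mean of the probes, the probe with the highest mean, centring, quantile normalization, leaving out or raising low values, a pseudocount of 0.1 and a limit of 1.5-fold.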

Additional observations from a re-analysis of the deposited data

Results flagged for a closer look

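Control spots were left out of all comparisons, and 3 of the 93 were past 2-fold, all higher without Nanos2 than in the control. The dark corner spot, which carries no gene probe, had deposited values of 0.331 in the control, 0.864 without Nanos2 and 0.450 in the data labelled Nanos2-/- Stra8-/-, a log2 difference of 1.38. The AT_nB_5 spot differed by 1.38 and the AT_nX_3 spot by 2.06, with values of 0.308, 1.28 and 0.383 in the same order. No cause was tested.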

How the results depend on the processing

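Without an alternative there were 25 genes higher by every probe, 48 genes lower by every probe, 459 genes higher by the median of their probes and 618 genes lower by the median of their probes. Raising values under 0.5 to 0.5 gave 14, 40, 246 and 518 in that order. A limit of 1.5-fold gave 84, 146, 1113 and 1326. All other settings kept each count within 1.5 times. Of the 25 and 48 genes past 2-fold by every probe, 24 and 42 remained so with quantile normalization and 22 and 40 with a pseudocount of 0.1. Of 84 named genes past 2-fold, all kept their direction under the 7 settings other than the limit, and between 75 and 84 stayed past 2-fold. Their sizes moved more: the fold moved by over 1.5 times in 25 of the 84 with values raised to 0.5, of which 20 were higher without Nanos2, in 13 with quantile normalization, in 5 with the pseudocount and in 2 with the probe of highest mean. The log2 difference of Stra8 was 3.39, and 1.18 with values raised to 0.5 and 2.57 with the pseudocount. Where the control lies under 0.5 and the value without Nanos2 near 1, raising to 0.5 sets the difference near 1 in advance. Moves of higher genes under that setting therefore do not measure their reliability. The log2 difference of Nanos2 was -7.90, and -6.53 with quantile normalization. Taking the probe with the highest mean in place of the median over the probes gave 508 genes higher and 730 lower. No paired analysis was possible because each genotype has 1 column. With 1 column per genotype no replicate could be left out.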

Other observations

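Probes without a gene name in the annotation numbered 8510, of which 276 were 2-fold higher and 290 were 2-fold lower without Nanos2. Values above 5 were found for 49 probes in the control, 1 without Nanos2 and 2 in the data labelled Nanos2-/- Stra8-/-. Values above 2 were found for 433, 54 and 187 probes in the same order. The divisor of each probe is not given, so these counts do not compare how many transcripts were abundant.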
